A study of Homo sapiens with 5 samples.

Results

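The alpha-arrestins ARRDC1, ARRDC2, ARRDC3, ARRDC4 and TXNIP were followed across 5 RNA-seq libraries of HEK293T, an embryonic kidney line of human origin with the SV40 large T antigen. The 5 genes were taken by symbol from the deposited tables, which list 19716 genes with a read in at least 1 library, and all 5 were among the 14477 genes with a mean of at least 20 reads. The set was assembled with measured values in view, ARRDC2 having been picked for its level with the DNMT3A and DNMT3B fusions, so the levels below are a description and no test is given for the 5 genes. In 4 libraries the cells expressed 5 sgRNAs that target the uPA promoter (the gene is PLAU in the files) and 1 fusion protein, dCas9-BFP-EGFP or dCas9-BFP joined to DNMT1, DNMT3A or DNMT3B. The latter 3 fusions carry the catalytic domain of a DNA methyltransferase on a Cas9 without nuclease activity, DNMT3A and DNMT3B being the enzymes that methylate DNA de novo and DNMT1 the one that maintains methylation. EGFP has no methyltransferase activity. The study reported raised methylation of the uPA promoter with the DNMT3A and DNMT3B fusions, and none with the DNMT1 or EGFP fusion. The control was pUC19, a plasmid without dCas9 or guides. All cells were collected 48 hours after transfection with 1 ug of plasmid, and the labels give cells sorted for blue fluorescent protein (BFP) as the source of RNA in every group, pUC19 included. pUC19 encodes no BFP, so it is not clear how the control cells were sorted. Each group is 1 library, so no difference has a replicate check, and the presence of dCas9, guides, BFP and sorting cannot be told apart in a comparison with pUC19. In bulk RNA, fewer cells expressing a gene and less RNA per cell cannot be told apart either.

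ARRDC2 stood at 44.8 and 48.0 transcripts per 1000000 (TPM) with the DNMT3A and DNMT3B fusions, against 8.3 to 11.6 TPM in the other 3 libraries. ARRDC3 stood at 6.93 to 9.59 TPM with every fusion and at 21.2 TPM with pUC19. TXNIP was higher with all 4 fusions than with pUC19, while ARRDC4 was lower with all 4, and ARRDC1 stayed between 16.2 and 19.4 TPM. The 5 genes of this family therefore had different patterns over the same 5 libraries.

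Alpha-arrestins are adaptor proteins with an arrestin fold. They carry PPxY motifs that bind the WW domains of NEDD4-family ubiquitin ligases, and by bringing a ligase to a membrane protein they promote its ubiquitination and endocytosis. TXNIP also binds reduced thioredoxin, restrains glucose uptake through the glucose transporter SLC2A1, and is induced by glucose through the transcription factors MondoA (MLXIP) and MLX at a carbohydrate response element in its promoter. ARRDC4 is known as a second target of MondoA that lowers glucose uptake, ARRDC3 as an adaptor for the beta2-adrenergic receptor and integrin beta4, and ARRDC1 as a plasma membrane protein that recruits TSG101 and buds small vesicles. The roles of ARRDC2 are less well described.

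The genes lie on separate chromosomes of GRCh37, in the GENCODE annotation. TXNIP is at chr1:145438490-145442635 on the plus strand, ARRDC3 at chr5:90664448-90679134 on the minus strand, ARRDC1 at chr9:140500137-140509812 on the plus strand, ARRDC4 at chr15:98503933-98517063 on the plus strand and ARRDC2 at chr19:18111941-18124911 on the plus strand. Promoter sequence was taken from RefSeq (GRCh38.p14), as windows of 250 bases before to 50 bases after each annotated start. The table held 8 windows for these genes, 2 each for ARRDC2, ARRDC3 and TXNIP and 1 each for ARRDC1 and ARRDC4, and each window had exactly 1 match on its GRCh37 chromosome. Stretches with the letters of known response elements are shown first for TXNIP, ARRDC4 and ARRDC3, written 5′ to 3′ on the strand of the gene. Capitals mark a pair of CACGNG boxes and a CCAAT box in TXNIP, the E-box CACGTG and an inverted CCAAT box in ARRDC4, and the FOXO letters GTAAACA, here on the opposite strand, in ARRDC3.
TXNIP, 110 to 61 bases upstream of the start, chr1:145438380-145438429, plus strand: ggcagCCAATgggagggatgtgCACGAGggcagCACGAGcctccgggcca
ARRDC4, 225 to 176 bases upstream of the start, chr15:98503708-98503757, plus strand: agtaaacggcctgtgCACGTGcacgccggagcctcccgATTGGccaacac
ARRDC3, 60 to 11 bases upstream of its second annotated start, chr5:90675925-90675974, minus strand: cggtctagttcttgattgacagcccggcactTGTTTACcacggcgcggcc

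The carbohydrate response element was searched for as a pair of CACGNG boxes in 1 direction with 5 bases between them. This layout was found on either strand in 20 of all 35116 promoter windows (0.057%). TXNIP was the only one of the 5 genes among them. Pairs in other orientations or with other letters were not searched, so the element is not shown to be absent from the other genes. In TXNIP the pair began 88 bases upstream of the start. CACGTG was found in 7.26% of windows, and among the 5 genes in ARRDC4, 210 bases upstream. A single CACGNG box, which is part of both the pair and CACGTG, was found in 30.5% of windows and in 4 of the 5 genes, ARRDC1 being the exception. GTAAACA was found in 3.42% of windows, in TXNIP 124 bases upstream and in ARRDC3 29 bases upstream of its second start. The letters of a glucocorticoid response element, GNACA and TGTNC with 3 bases between them, were in 0.39% of windows and, of the 5 genes, in TXNIP 175 bases upstream. CCAAT (34.6% of windows) and the antioxidant response letters, TGA and GC with 4 bases between them (41.8% of windows), were in at least 1 window of each of the 5 genes. A match of letters is not evidence of binding.

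The promoter of ARRDC2, the gene with the widest range of levels, is shown whole for its start in the canonical transcript, with each CpG, the dinucleotide that DNA methyltransferases modify, in capitals.
ARRDC2, 250 bases before to 50 after the start, chr19:18118729-18119028, plus strand: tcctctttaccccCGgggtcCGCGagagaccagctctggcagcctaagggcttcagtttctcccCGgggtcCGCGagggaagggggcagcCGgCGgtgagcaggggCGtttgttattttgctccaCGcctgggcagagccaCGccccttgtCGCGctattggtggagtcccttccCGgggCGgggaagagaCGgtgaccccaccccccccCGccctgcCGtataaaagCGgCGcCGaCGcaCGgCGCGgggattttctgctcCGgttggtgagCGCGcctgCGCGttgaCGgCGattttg
This window holds 32 CpGs, with an observed to expected ratio of 0.933 and a GC content of 67.7%, and 18.9% of all promoter windows hold as many. The other annotated start of ARRDC2 lies 7046 bases upstream and its window holds 31 CpGs. The remaining genes hold 38 CpGs (ARRDC1), 26 and 47 (the first and second start of ARRDC3), 24 (ARRDC4), and 19 and 4 (the first and second start of TXNIP). ARRDC3's second start has the most CpGs of the 8 windows, and 2.41% of all windows hold as many. DNA methylation of these promoters was not analysed here. The guides were also compared with the windows, as the fewest mismatches of any of the 5 guides next to an NGG on either strand. The best site had 6 mismatches in the canonical window of ARRDC2, a number reached by 9.49% of all windows. It had 7 mismatches in the other ARRDC2 window, in ARRDC1, in both ARRDC3 windows and in the first TXNIP window, which 28.3% of windows reach, 8 in ARRDC4 and 10 in the second TXNIP window. A PLAU window held a site with 0 mismatches. The study regards mismatch counts as an unsuitable criterion for off-target sites of dCas9 fusions. It reported methylation of the GAPDH promoter despite more mismatches there than at SH2D3C and FAM221A, where it saw no significant change. The counts given here therefore do not show whether a window was bound, and binding was not tested.

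Libraries held between 26250000 (EGFP fusion) and 36140000 (pUC19) reads on genes, to the nearest 10000. PLAU, the targeted gene, had 106 reads with pUC19 and 1 to 6 reads with each fusion. Reads on the DNMT1, DNMT3A and DNMT3B genes, which include those from the plasmids, took 3.53%, 3.19% and 5.98% of the reads of the libraries named for them. Ratios to pUC19 are of TPM + 0.1, and a gene is called higher or lower where this ratio is at least 2, the fold used in the study. The 4 ratios of a gene share the same pUC19 library. The median log2 ratio over all 14477 genes was -0.14 with the DNMT1 fusion and between -0.023 and -0.003 with the others. Intervals are exact 95% intervals and cover counting error only, since each group is 1 library. PCR copies are not independent molecules, so the intervals may be too narrow even for that error.

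TXNIP had the highest level of the 5 genes in every library. It was measured at 44.7 TPM (interval 42.8 to 46.7) with pUC19, 62.4 (59.8 to 65.0) with the DNMT1 fusion, 73.0 (70.1 to 76.0) with DNMT3B, 79.4 (76.6 to 82.3) with DNMT3A and 94.2 (91.0 to 97.6) with EGFP. None of these intervals overlapped, and pUC19 was the lowest library and the EGFP fusion the highest. The log2 ratio to pUC19 was 0.48 with DNMT1, 0.71 with DNMT3B, 0.83 with DNMT3A and 1.073 (interval 0.995 to 1.155) with EGFP. The DNMT1 ratio (interval 0.393 to 0.566) depended on scaling. It was 0.607 with TMM scaling, 0.622 with median-ratio scaling and 0.665 after centring on the 500 genes nearest in transcript GC content. TXNIP passed 2-fold in the EGFP library, the one without a methyltransferase domain, at 2.1-fold, with an interval that reached just below 2-fold, and in no other. TXNIP rests on 2106 to 3142 reads, the most of the 5 genes, and 92.69% to 97.53% of its transcript was covered.

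ARRDC4, which like TXNIP is known to restrain glucose uptake, was lower with every fusion than with pUC19. Its level was 31.0 TPM (29.7 to 32.4) with pUC19, 25.6 (24.2 to 27.2) with EGFP, 19.0 (17.8 to 20.2) with DNMT3A, 18.5 (17.3 to 19.8) with DNMT3B and 16.1 (15.0 to 17.3) with DNMT1. pUC19 was the highest library and the EGFP fusion the next, and the intervals of the DNMT3A and DNMT3B fusions overlapped. The log2 ratio to pUC19 was -0.27 with EGFP, -0.71 with DNMT3A, -0.74 with DNMT3B and -0.94 with DNMT1 (interval -1.06 to -0.83). It was past 2-fold with none. The DNMT1 ratio left its interval with TMM scaling (-0.812), median-ratio scaling (-0.797) and GC centring (-0.751). Among the 4 fusions, TXNIP and ARRDC4 were both lowest with DNMT1 and highest with EGFP. Their log2 ratios of DNMT1 to EGFP were -0.60 (-0.67 to -0.52) and -0.67 (-0.80 to -0.54). The median of this ratio over all 14477 genes was -0.128, so the DNMT1 library was lower for genes in general. Against pUC19 the directions of TXNIP and ARRDC4 were opposite.

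ARRDC3, the adaptor of the beta2-adrenergic receptor and integrin beta4, was the member with the clearest division between pUC19 and the fusions. It was measured at 21.2 TPM (20.1 to 22.4) with pUC19 and at 9.59 (8.76 to 10.5) with DNMT1, 7.74 (6.96 to 8.57) with EGFP, 7.31 (6.6 to 8.07) with DNMT3A and 6.93 (6.2 to 7.72) with DNMT3B. The reads behind these levels were 1414 with pUC19 and 326 to 496 with the fusions. Log2 ratios to pUC19 were -1.14 with DNMT1, -1.44 with EGFP, -1.53 with DNMT3A and -1.60 with DNMT3B, which correspond to levels 2.2, 2.72, 2.88 and 3.03 times lower. The intervals of the EGFP, DNMT3A and DNMT3B fusions overlapped, and that of DNMT1 lay above them. Relative to all genes, 178 of 14477 had a ratio at least as low with EGFP and 442 with DNMT1. With DNMT1 the ratio came under 2-fold with median-ratio scaling (-0.996) and after centring on the 500 genes nearest in transcript GC content (-0.80). The ARRDC3 transcript has the lowest GC content of the 5, 37.2%. The same centring left ratios of -1.25 with DNMT3A and -1.40 with DNMT3B, still past 2-fold.

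ARRDC2 had the widest range, 5.79-fold between the lowest and the highest library. Its level was 8.3 TPM (7.33 to 9.37) with DNMT1, 8.6 (7.72 to 9.55) with pUC19, 11.6 (10.4 to 12.9) with EGFP, 44.8 (42.5 to 47.1) with DNMT3A and 48.0 (45.5 to 50.7) with DNMT3B, from 261, 348, 333, 1448 and 1374 reads. The values fall into a low range of 3 libraries and a high range of 2 that do not overlap, which is the pattern the gene was picked for. The intervals overlapped between DNMT1 and pUC19 and between DNMT3A and DNMT3B, and EGFP lay above the former pair. Against pUC19 the log2 ratio was 2.37 (2.21 to 2.55) with DNMT3A and 2.47 (2.31 to 2.66) with DNMT3B, and -0.05 (-0.29 to 0.19) with DNMT1, a value whose sign depends on the scaling. With EGFP it was 0.43 (0.21 to 0.66). Against the EGFP fusion, which shares the guides and the dCas9-BFP part, ARRDC2 was 3.83-fold higher with DNMT3A and 4.11-fold higher with DNMT3B. Between DNMT3B and DNMT3A the log2 ratio was 0.10 (-0.01 to 0.21). In the order of 14477 genes by ratio, ARRDC2 stood 33rd and 26th from the top against pUC19 (DNMT3A and DNMT3B), 34th and 23rd against EGFP, and 6th and 2nd against DNMT1. These places follow from how the gene was picked. Reads covered 91.14% and 95.65% of the ARRDC2 transcript in these libraries and 85.37% to 88.77% in the other 3.

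ARRDC1, the vesicle-budding member, varied least, with a ratio of 1.2 between its highest and lowest library. It stood at 16.2 TPM (14.4 to 18.1) with EGFP, 17.5 (15.7 to 19.6) with DNMT3B, 17.8 (16.2 to 19.5) with pUC19, 18.0 (16.2 to 19.9) with DNMT3A and 19.4 (17.5 to 21.4) with DNMT1. All 5 intervals shared values between 17.5 and 18.1 TPM. Log2 ratios to pUC19 lay between -0.14 and 0.12, with intervals that all held 0. After centring on GC content they reached -0.25 with DNMT3A and -0.30 with DNMT3B, and the sign with DNMT3A turned. The ARRDC1 transcript has the highest GC content of the 5, 62.8%.

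**Figure D1:**
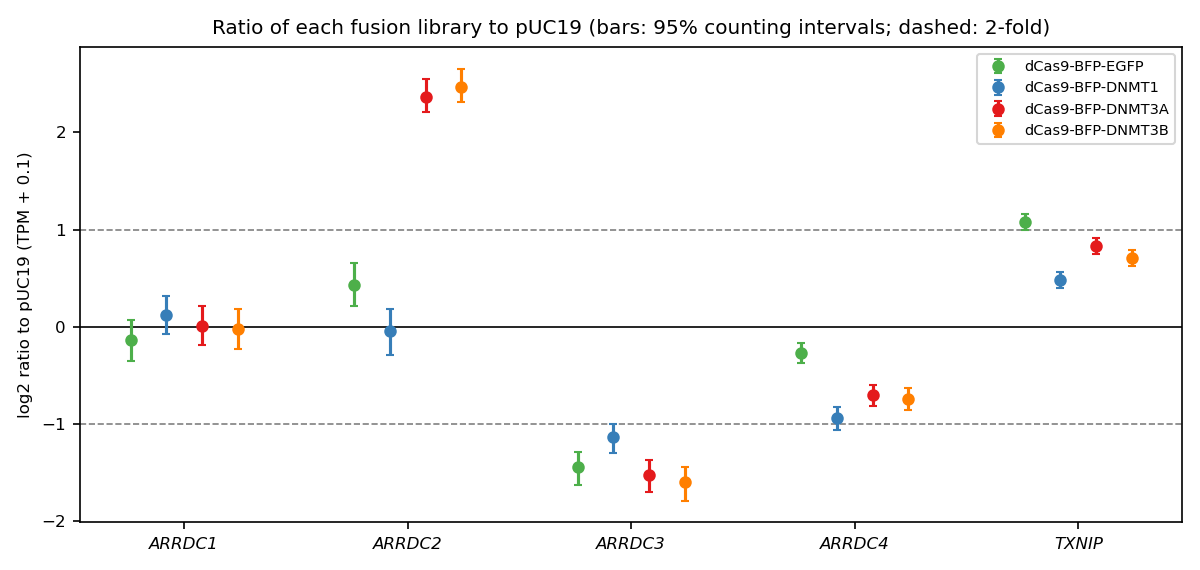
Log2 ratio of each fusion library to pUC19 for the 5 genes, with 95% counting intervals as bars and 2-fold as dashed lines. ARRDC3 lies below the lower line with all 4 fusions (-1.14 to -1.60), ARRDC2 lies above the upper line with DNMT3A and DNMT3B (2.37 and 2.47), and TXNIP crosses it with EGFP (1.07).

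Counted together, 0 of the 5 genes were at least 2-fold higher and 1 was at least 2-fold lower with DNMT1, where 2.09% and 4.76% of all 14477 genes passed these limits. With DNMT3A, 1 was higher and 1 lower, against 5.77% and 6.09% of all genes. The same counts held with DNMT3B, against 6.05% and 5.33%, and with EGFP, against 3.43% and 4.02%. The lower gene was ARRDC3 each time, and the higher gene was ARRDC2 with DNMT3A and DNMT3B and TXNIP with EGFP. With 5 genes, these counts say little beyond naming them. Between fusions, 1 gene passed 2-fold in either direction for DNMT3A over DNMT1 (4.97% of all genes), DNMT3B over DNMT1 (5.1%), DNMT3A over EGFP (5.51%) and DNMT3B over EGFP (5.22%), and it was ARRDC2 in each. None did for DNMT1 over EGFP (2.45%) or DNMT3B over DNMT3A (0.767%). Summed over the 5 genes, the level was 116 TPM with DNMT1, 123 with pUC19, 155 with EGFP, 164 with DNMT3B and 168 with DNMT3A. ARRDC2 made up 26.6% and 29.3% of this sum with DNMT3A and DNMT3B and 6.97% to 7.47% elsewhere, and ARRDC3 made up 17.2% with pUC19 and 4.22% to 8.28% with the fusions.

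**Figure D2:**
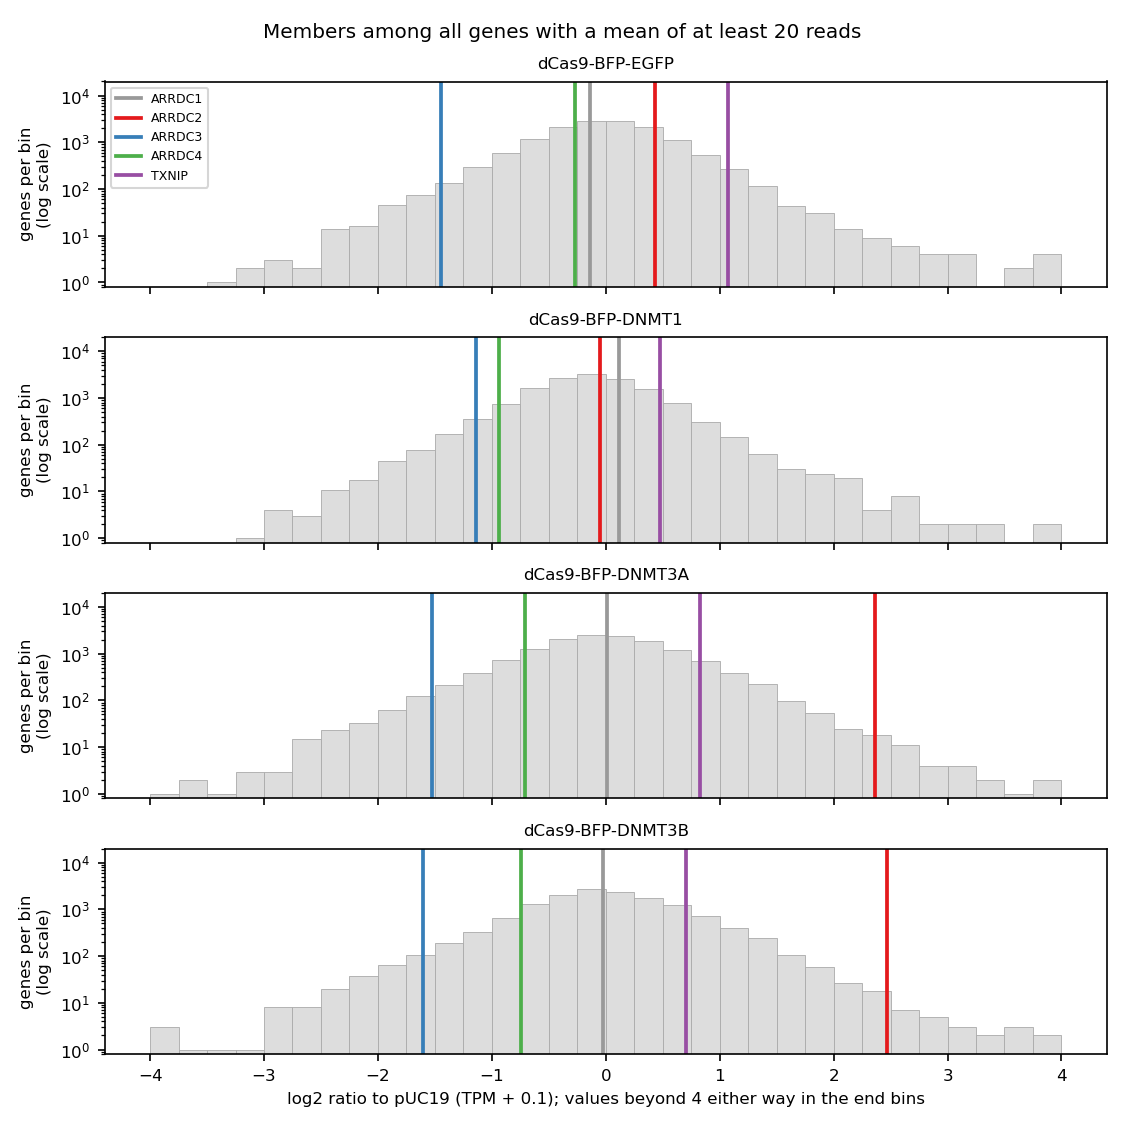
Histograms of the log2 ratio to pUC19 over 14477 genes for each fusion (genes per bin on a log scale), with a coloured line at each of the 5 genes. ARRDC2 lies in the upper tail with DNMT3A and DNMT3B (2.37 and 2.47) and near the middle with DNMT1 (-0.05), whereas ARRDC3 lies in the lower tail in all 4 panels (-1.14 to -1.60).

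The remaining human alpha-arrestin, ARRDC5, was at or near the limit of detection, with 6 reads with pUC19, 3 with EGFP, 1 with DNMT1 and 0 with DNMT3A and DNMT3B. The smallest share shown, 3 reads, is 0.102 reads per 1000000 in the DNMT3A library and 0.11 in the DNMT3B library. A count of 0 does not show absence, and no fold is given. Some of the genes overlap others. ARRDC3-AS1, an antisense RNA at chr5:90676166-90911922 on the plus strand, shares 2969 bases of the genome with ARRDC3. It stood at 4.33 TPM with DNMT1, 4.25 with EGFP, 2.7 with DNMT3A, 2.38 with DNMT3B and 4.49 with pUC19, from 67 to 179 reads. Its log2 ratio to pUC19 was -0.05 with DNMT1, -0.08 with EGFP, -0.71 with DNMT3A and -0.89 with DNMT3B, where that of ARRDC3 was -1.14, -1.44, -1.53 and -1.60. ARRDC1-AS1, at chr9:140509778-140513358 on the minus strand and listed in the files under the symbol C9orf37, shares 35 bases with the end of ARRDC1. It stood at 41.9 TPM with pUC19 and at 21.3 to 29.2 TPM with the fusions, a range of 1.96-fold over the 5 libraries against 1.2-fold for ARRDC1. ENSG00000279172, on the strand opposite to ARRDC2, and ENSG00000283411, on the strand of ARRDC1, also overlap these genes and were not analysed here. Counting by strand is not stated, so reads from the shared bases cannot be assigned to a strand.

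The genes nearest to each member in pattern were ranked by the root mean square difference of log2(TPM + 0.1), centred on the mean, over the 5 libraries. They are a description, since 5 points that share libraries and depth order many genes alike. For ARRDC3 they were DCBLD2 (difference 0.029), EXD3 (0.058) and TMEM86B (0.059), and DCBLD2 stood at 18.1 TPM with pUC19 and at 5.57 to 7.99 TPM with the fusions. For TXNIP they were LOC100507501 (0.049), HIF1AN (0.051), which encodes the asparaginyl hydroxylase that inhibits HIF1A, and TMEM140 (0.051). HIF1AN stood at 33.5 TPM with pUC19 and at 76.5 TPM with EGFP. For ARRDC4 they were GCNT1 (0.037), COL19A1 (0.054) and MFAP3 (0.058), and for ARRDC1 they were C8orf82 (0.024), NFATC1 (0.033) and ZMAT2 (0.034). For ARRDC2 they were ZNF503 (0.301), PIWIL4 (0.318) and FOXA3 (0.32). This measure grows with the range of a gene, so its size does not compare between members. ZNF503, a zinc finger gene, stood at 138 and 126 TPM with DNMT3A and DNMT3B and at 33.2 to 40.8 TPM elsewhere.

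The pathway around the alpha-arrestins was followed as 6 lists with 56 genes, of which 52 had enough reads to be tested. The lists were chosen with earlier results of these data known, so the tests below do not rest on an independent set of genes. Against pUC19, edgeR's quasi-likelihood test over 16001 genes, with the 4 fusions as 1 group, found 0.0937% of genes higher and 0.644% lower at an adjusted p under 0.05, and 0 of the 52 listed genes in either direction. At an unadjusted p under 0.05 there were 8 listed genes, 15.4% of those tested against 18.0% of all genes. DESeq2 called 3 of 51 listed genes, 5.88% against 7.1% of all genes, named here after their values were seen: the ligase WWP2 and the ESCRT-I subunit VPS37B, both higher with the fusions, and the mitochondrial peroxiredoxin PRDX3, lower. The listed genes had a median log2 fold change of 0.05, against 0.03 over all genes tested. In this fit the fitted log2 fold change of the members was -1.37 for ARRDC3, -0.60 for ARRDC4, 0.05 for ARRDC1, 0.84 for TXNIP and 1.75 for ARRDC2, given without a test. The spread in such a fit comes from different constructs, which are not replicates of a condition, and the single pUC19 library is assumed to vary as they do. A gene that did not pass is therefore not shown to be unaffected.

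With DNMT3A and DNMT3B as 1 group against DNMT1 and EGFP, the same test over 15332 genes found 6.9% of genes higher and 4.15% lower, and 4 of the 52 listed genes higher and 3 lower. The median of the listed genes was 0.02, against -0.01 over all genes tested. Among the ESCRT partners of ARRDC1 vesicles, 2 of 9 tested genes rose and none fell. VPS37C and VPS37D encode subunits of the ESCRT-I complex that holds TSG101. VPS37C stood at 45.6 and 51.0 TPM with DNMT3A and DNMT3B and at 21.5 and 28.3 TPM with DNMT1 and EGFP (log2 fold change 0.91, adjusted p = 0.00888). VPS37D stood at 15.8 and 14.6 TPM against 9.14 and 5.78 TPM (0.96, adjusted p = 0.0478). TSG101 itself stood at 62.2 and 60.2 TPM against 69.3 and 66.0 TPM and did not pass the test.

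Of 11 NEDD4-family ligases and adaptors, SMURF1 alone passed, higher at 43.1 and 46.2 TPM against 23.7 and 30.9 TPM (log2 fold change 0.66, adjusted p = 0.0181). In the thioredoxin system, 1 of 12 genes rose and 2 fell. SRXN1, the sulfiredoxin that restores overoxidised peroxiredoxins, stood at 55.1 and 62.4 TPM against 30.5 and 33.3 TPM (0.83, adjusted p = 0.00888). TXNRD2, the mitochondrial thioredoxin reductase, stood at 61.6 and 61.9 TPM against 83.7 and 102 TPM (-0.64, adjusted p = 0.0191). PRDX5, a peroxiredoxin, stood at 323 and 295 TPM against 385 and 425 TPM (-0.44, adjusted p = 0.0439). TXN, the thioredoxin that TXNIP binds, lay between 543 and 615 TPM in all 5 libraries and did not pass either test. Of the 5 arrestin-fold relatives tested, ARRB1, a beta-arrestin, fell, at 12.5 and 13.2 TPM against 18.3 and 17.8 TPM (-0.55, adjusted p = 0.0351). None of the 7 membrane cargo genes tested passed, SLC2A1 lying between 27.4 and 35.3 TPM in all 5 libraries. All 7 calls were lost without the DNMT3A library and without the DNMT3B library, and all 7 were made without DNMT1 and without EGFP. Without the low-count filter, VPS37D, ARRB1 and PRDX5 no longer passed, which left 3 listed genes higher and 1 lower.

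**Figure D3:**
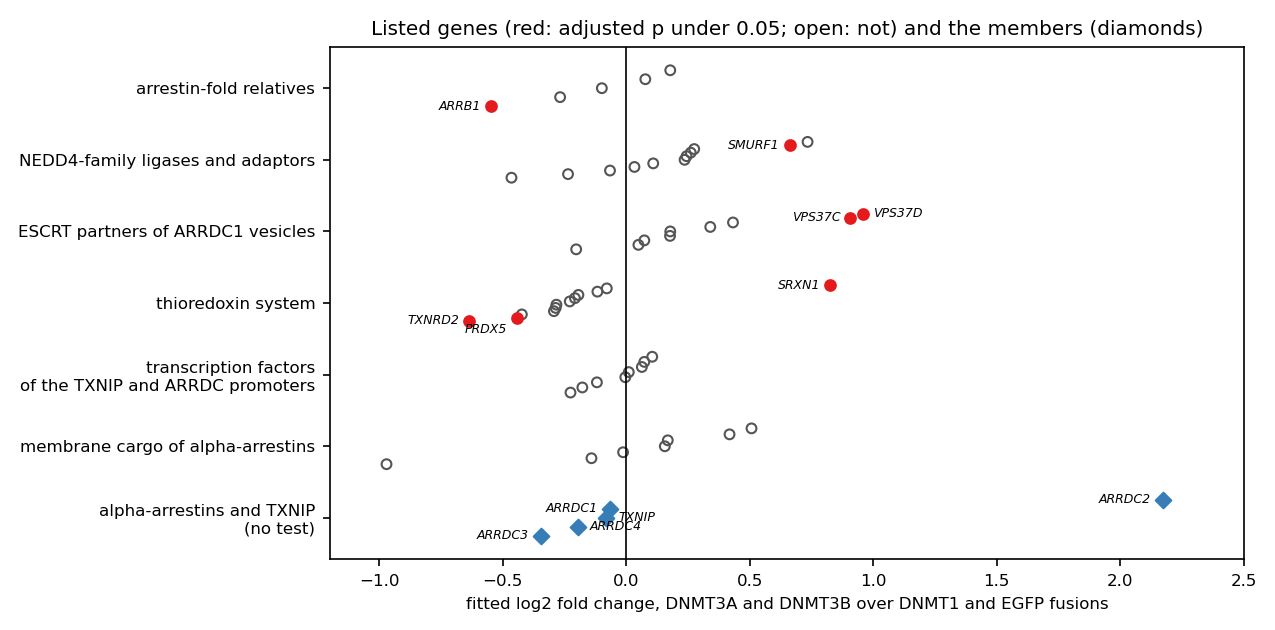
Fitted log2 fold change of DNMT3A and DNMT3B over the DNMT1 and EGFP fusions for the 52 listed genes tested, by list (filled red circles, adjusted p under 0.05; open circles, not), and for the 5 alpha-arrestins (diamonds, no test). The 7 listed genes that passed lie between -0.64 and 0.96, and ARRDC2 lies at 2.17.

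The 8 transcription factors tied to the TXNIP and ARRDC promoters passed neither test. MLXIP (MondoA) lay between 34.8 and 43.7 TPM, its partner MLX between 40.0 and 57.2 TPM and MLXIPL (ChREBP) between 6.87 and 11.4 TPM. FOXO1 lay between 14.7 and 19.3 TPM, FOXO3 between 22.5 and 31.2 TPM and FOXO4 between 22.4 and 33.8 TPM. NR3C1, the glucocorticoid receptor, lay between 14.6 and 20.2 TPM, and HSF1, the heat shock factor, between 93.0 and 115 TPM. Their highest level was 1.24 to 1.66 times their lowest, against 1.2 times for ARRDC1 and 1.92 to 5.79 times for the other 4 members. The members were picked with measured values in view, so these ranges are not compared on equal terms. MLX, MLXIPL and FOXO4 were highest with pUC19, FOXO3 and HSF1 were lowest with it, and MLXIP, FOXO1 and NR3C1 lay in between. The activity of these factors was not measured. In the fit of DNMT3A and DNMT3B against DNMT1 and EGFP, the fitted log2 fold change was 2.17 for ARRDC2, -0.06 for ARRDC1, -0.08 for TXNIP, -0.20 for ARRDC4 and -0.35 for ARRDC3, given without a test because ARRDC2 was picked from this contrast.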

How the data were processed

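The authors extracted poly(A) RNA, sequenced it on an Ion Proton and aligned reads to hg19 (GRCh37) RefSeq transcripts with tmap, keeping reads that mapped uniquely; the tmap version is not given in the sources used here. The deposited read counts per gene are whole numbers without normalization. TPM, also deposited by the authors, is the count divided by transcript length and scaled to a sum of 1000000 per library, which recomputing gave again. The deposited coverage in percent is not defined by the authors and was read as the part of a transcript with a read. Genes absent from a table were set to 0. Counting unique reads alone lowers genes with near-identical copies.

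Totals were 26250000 to 36140000 reads per library (nearest 10000), so that 3 reads, taken as the smallest share shown, were 0.083 to 0.114 reads per 1000000. Groups were taken from the sample titles. The 5 genes and the gene lists were chosen with earlier results of these data known. Levels are TPM with exact Poisson intervals of the reads, and ratios are of TPM + 0.1, which understates changes of low genes, with exact conditional binomial intervals (95%). A gene was called at a fold of at least 2, and the background is all genes with a mean of at least 20 reads. The listed genes were tested with edgeR (4.0.16, R 4.3.3; TMM, filterByExpr, quasi-likelihood F-test, Benjamini-Hochberg adjusted p under 0.05) on the counts of all genes, with 4 fusions against pUC19 and with DNMT3A and DNMT3B against DNMT1 and EGFP; the p-values measure the spread between constructs. The scripts were tested on simulated data. For the edgeR fits these had less spread than the real libraries and larger changes than the listed genes that passed. That test checks the code and not the calls. Alternatives were a pseudocount of 1 TPM, TMM and median-ratio scaling, a fold of 1.5, centring on the 500 genes nearest in GC content, no read filter, DESeq2 (1.42.0) and leaving out each fusion.

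Genes named beside the 5 were ARRDC5, overlapping genes, the listed genes that passed a fit (at most 4 per list and fit), the 8 listed transcription factors, and for each member the 3 genes nearest in pattern. WWP2, VPS37B, PRDX3, TSG101, TXN and SLC2A1 fall outside this rule and were named after their values were seen. Promoters are from RefSeq (GRCh38.p14) and were placed on GRCh37 by exact match, and gene positions are from GENCODE v44 on GRCh37. Protein sequences were not analysed here.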

Additional observations from a re-analysis of the deposited data

Results flagged for a closer look

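The 7 listed genes whose level differed between the pair DNMT3A and DNMT3B and the pair DNMT1 and EGFP were set apart because this difference itself was tested (edgeR's quasi-likelihood test, 2 libraries against 2). The fitted log2 fold changes of the former pair over the latter were 0.91 for VPS37C, 0.83 for SRXN1, 0.66 for SMURF1 and 0.96 for VPS37D, and -0.64 for TXNRD2, -0.55 for ARRB1 and -0.44 for PRDX5. In each of the 7, both libraries of one pair lay above both libraries of the other. Selection by this test favours such a separation, so it is no added support. The libraries of a pair are different constructs and not replicates. The 7 calls were lost without DNMT3A or without DNMT3B. Of the 52 tested genes 4 were called higher and 3 lower, beside 6.9% and 4.15% of all genes. These counts are near the shares of all genes, so they do not set the lists apart.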

How the results depend on the processing

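No paired analysis was possible because each group is 1 library. Of 80 member ratios recomputed under another scaling, pseudocount or GC centring, 66 stayed within their counting interval and 14 did not, and no called ratio changed sign. ARRDC3 with DNMT1 was no longer past 2-fold with median-ratio size factors or with GC centring (0 genes lower in place of 1). At a fold of 1.5, 2 genes were lower with DNMT1, and 2 were higher and 2 lower with DNMT3A and with DNMT3B. The shares of all genes past 2-fold against pUC19 were larger without the read filter. They were then 4.29% higher and 8.04% lower with DNMT1, and 6.19% and 6.5% with EGFP. With DNMT3A they were 6.69% and 9.54%, and with DNMT3B 7.17% and 8.73%. For the 4 fusions against pUC19, the 15 higher genes became 65 without the low-count filter and 528 with DESeq2, and 8 to 28 with 1 fusion left out. The 103 lower genes became 187, 464 and 57 to 77. Of the listed genes, 1 was higher without the filter, 2 with DESeq2 and 0 to 1 with 1 fusion left out, and 1 was lower with DESeq2. In the fit that set DNMT3A and DNMT3B against the other fusions, the 1058 higher genes became 17 to 2227 and the 636 lower genes 1 to 1623 with 1 library left out, and 344 were lower without the filter. Of the listed genes, 0 to 9 were higher and 0 to 7 lower with 1 library left out, and 1 was lower without the filter. In this fit the lowest counts came without DNMT3A and the highest without EGFP. With any 1 of the fusions left out, its partner is a lone library that is assumed to vary like the other pair. The cause of the shifts was not tested. Depth leaves ARRDC5, at 0 to 6 reads, without a usable fold.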
